A study of Mus musculus with 8 samples.

Results

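The genes described here encode the constitutive proteasome with its regulators and assembly factors. They were chosen by symbol alone, as every gene named Psma, Psmb, Psmc, Psmd, Psme, Psmf or Psmg followed by a number, leaving out the immunoproteasome subunits Psmb8, Psmb9 and Psmb10. The rule found 45 of 77981 genes, and each has 1 identifier. They are 16 genes of the core particle, 17 of the regulatory particle, 4 activators, 1 inhibitor and 7 assembly factors. Their RNA was measured in mouse kidney samples whose cell type is given as IMCD, that is, inner medullary collecting duct, with 4 AVP-flox and 4 AVP-flox;Cre libraries. In AVP-flox mice loxP sites flank the vasopressin gene Avp, AVP-flox;Cre adds a Cre recombinase, and tamoxifen is the treatment of every library in both groups. The former are called controls here and the latter Cre libraries, each with its replicate number. The labels give no promoter for Cre, strain, age or sex, and there is no group with Cre but without the floxed gene. Nor do they state that each replicate is its own animal, so the p-values measure the spread between these samples, which may be technical.

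The proteasome is the protease that destroys ubiquitin-tagged proteins. Its core particle is a barrel of stacked rings, with alpha subunits as the gate and beta subunits in the middle, of which Psmb5, Psmb6 and Psmb7 carry the active sites. The regulatory particle sits on the barrel ends: a base with a ring of ATPases unfolds the substrate, and a lid removes its ubiquitin. Other caps, the activators, open the gate without ubiquitin recognition, and dedicated chaperones build the particle without staying in it. In many cell types interferon replaces the constitutive active subunits by Psmb8, Psmb9 and Psmb10 and raises the activator PA28.

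Values are TPM, transcript abundances scaled to a fixed total, which are already per transcript length. The levels given were not corrected here for GC content, so comparisons of level between genes are approximate. TPM keeps no read number, so the depth of the libraries is unknown. Differences were tested with limma on log2(TPM + 1), and a gene was called at a Benjamini-Hochberg adjusted p under 0.05 over 19043 tested genes. The targeted gene Avp, which is made in the hypothalamus, was at most 0.24 TPM in controls and 0.27 TPM with Cre, so these kidney libraries do not check the deletion. All 8 IMCD markers listed, Aqp2 among them, were above 0 in every library, and their summed level was 17848 to 21443 TPM in controls and 8318 to 10127 TPM with Cre. Most of that sum was Aqp2, at 14915 to 18131 TPM in controls and 5443 to 7036 TPM with Cre. Aqp3 and Aqp4 were lower with Cre as well, without overlap. Other markers of the list were higher with Cre and without overlap, Slc14a2 at 848 to 1081 and 1282 to 1447 TPM, Scnn1b at 19.9 to 29.4 and 59.5 to 66.5 TPM, and Scnn1g at 18.8 to 32.1 and 50.6 to 71.5 TPM, while Avpr2 and Hoxd10 overlapped. The 5 endothelial markers summed to 2174 to 2261 and 1729 to 1798 TPM, the 6 intercalated cell markers to 163 to 265 and 211 to 287 TPM, and the 6 proximal tubule markers to 37.7 to 617 and 79.5 to 231 TPM. The endothelial list was mixed too. Emcn, at 654 to 762 and 339 to 401 TPM, was lower with Cre without overlap. So were Pecam1, at 161 to 190 and 125 to 137 TPM, and Plvap, at 1282 to 1327 and 1204 to 1266 TPM. Kdr was higher, at 17.6 to 24.9 and 28.02 to 36.2 TPM, and Cdh5 overlapped. Of the intercalated markers Slc4a9 was higher with Cre without overlap, at 3.88 to 6.27 and 13.65 to 23.72 TPM, and the others overlapped. The IMCD and endothelial sums did not overlap and the intercalated and proximal tubule sums did, and their part in the results was not tested. In Cre 2, 33576 genes were above 0 TPM, and in the 7 others 50951 to 58232 were. Genes at 1 TPM or more numbered 16608 in Cre 2, 23412 in Cre 4 and 18211 to 20765 in the other libraries. By Xist and Y-linked genes 1 control and 2 Cre libraries were male.

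Of the 45 genes, 44 reached the mean of 1 TPM needed for the test. In the Cre libraries 5 were higher, 9 were lower and 30 did not pass, which is 11.4% higher and 20.5% lower. Over all tested genes 13.1% were called higher and 14.2% lower, 27.3% in all, so the share of proteasome genes called (31.8%) was near the background. With a mean of at least 5 TPM required, 4714 of 11955 genes were called, 2203 higher and 2511 lower. Of the proteasome genes 17 of 43 were then called, 5 higher and 12 lower. The median log2 fold change of the 44 genes was -0.08, beside -0.01 over all tested genes. The pattern was uneven between roles: the activator pair Psme1 and Psme2 rose, several lid and base genes and the chaperone genes Psmd5 and Psmg1 fell, and most core genes did not pass. Whether roles differ was not tested. With TPM rescaled after removing mitochondrial transcripts and the 10 genes of highest level, 4 were higher and 13 lower. When control 2, Cre 2 and Cre 4 were left out together, 7 of the 14 calls were kept (3 higher and 4 lower). Psmb3, Psmc1, Psmd12, Psmd14, Psmd5, Psme4 and Psmg4 lost theirs, with fewer samples. In that order their log2 fold changes were then -0.32, -0.30, -0.32, -0.28, -0.78, 0.46 and 0.37, in the same direction as with all libraries.

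**Figure D1:**
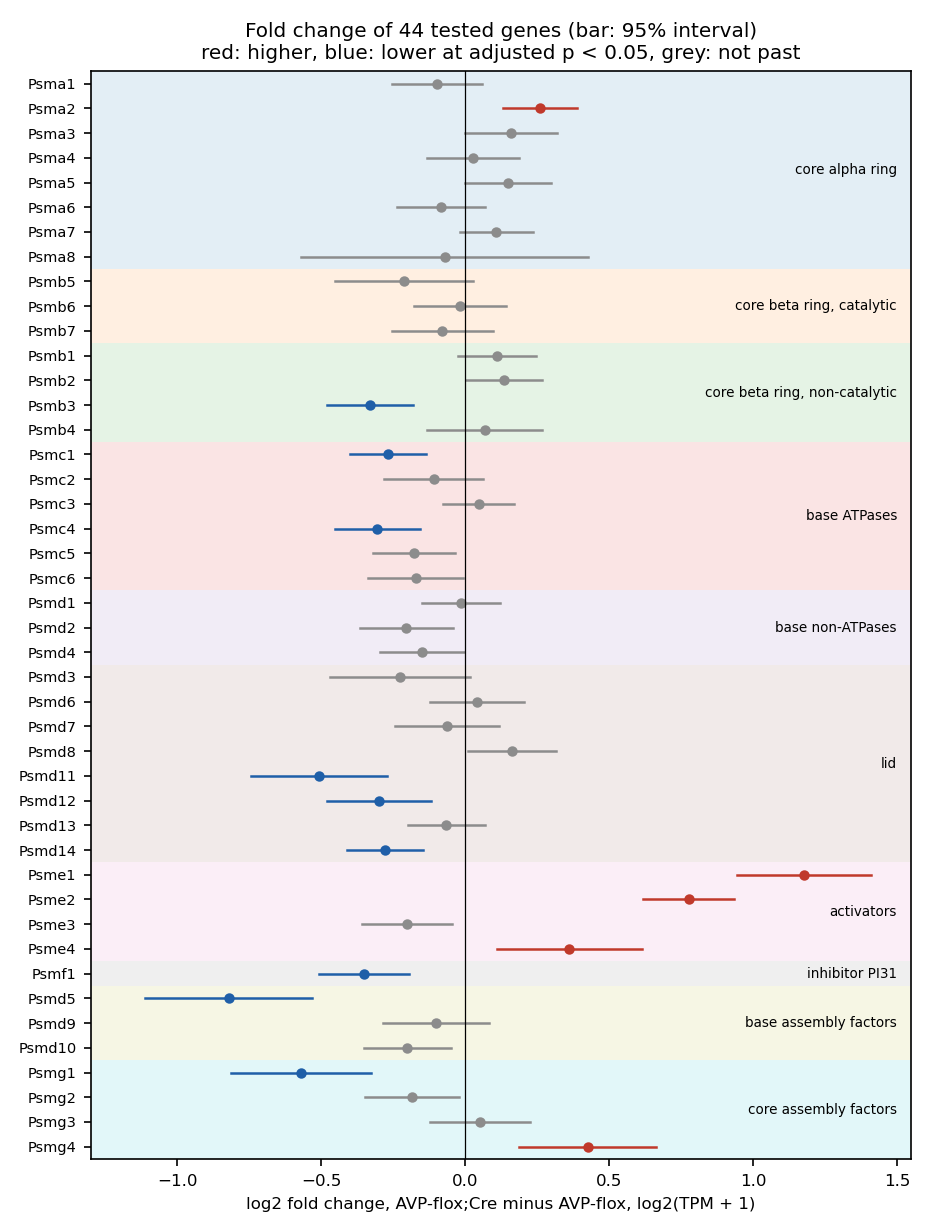
Log2 fold change (AVP-flox;Cre minus AVP-flox, log2(TPM + 1) scale, x axis) of the 44 tested proteasome genes (rows, shaded by role), with 95% intervals from limma. Red genes were higher and blue genes lower at an adjusted p under 0.05. Psme1 at 1.18 and Psme2 at 0.78 stand to the right of all others, and Psmd5 at -0.82 is the farthest to the left.

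The groups did not overlap for 6 higher and 15 lower of the 44 genes, against 14.7% higher and 14.9% lower over all tested genes (29.5% in all). Among the 30 genes that did not pass, 19 had a negative and 11 a positive log2 fold change, and 9 had an unadjusted p under 0.05. The median standard error (SE) of a proteasome gene was 0.07 on the log2 scale, beside 0.16 over all tested genes. Replicates of these genes lay close together, with a median coefficient of variation of 5.31% in controls and 6.42% in the Cre libraries.

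Levels differed more between subunits than between groups. The 7 ubiquitous alpha subunits, which enter the ring in equal copies, ran from 69.4 TPM for Psma5 to 359 TPM for Psma7 in controls, a 5.17-fold range of mean levels. The 7 constitutive beta subunits ran from 65.0 TPM for Psmb7 to 648 TPM for Psmb6, a 9.97-fold range. The ATPases were closer to each other, from 118 TPM for Psmc6 to 322 TPM for Psmc3 (2.73-fold), as was the lid, from 114.5 TPM for Psmd12 to 241.5 TPM for Psmd8 (2.11-fold). Core assembly factors were less abundant, at mean levels of 38.8 to 69.1 TPM in controls. In the Cre libraries the order of levels was much the same. Across the 44 genes the mean log2 levels of the groups had a Pearson r of 0.969 and a Spearman rho of 0.943. This is a correlation across genes, which are not independent replicates, and each gene's values share its length and sequence.

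**Figure D2:**
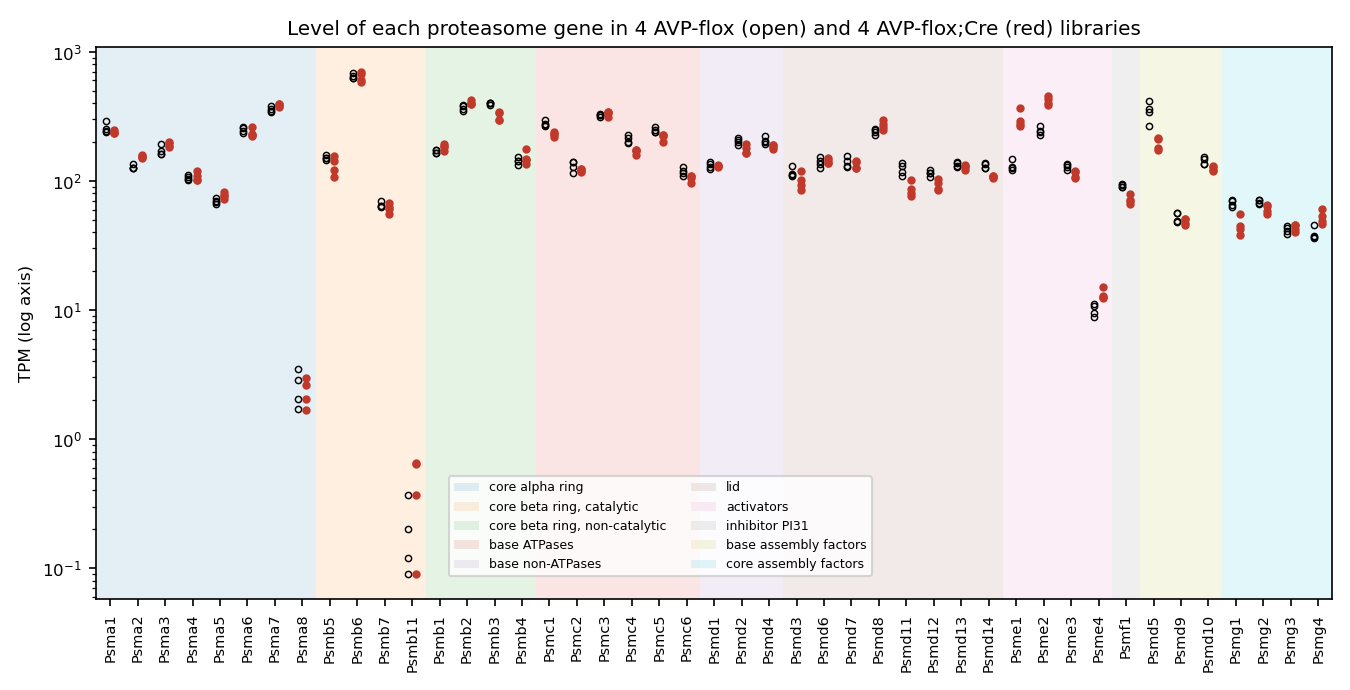
TPM of each of the 45 proteasome genes (y axis, log scale) in 4 AVP-flox libraries (open) and 4 AVP-flox;Cre libraries (red), ordered and shaded by role. All genes but Psme4, Psma8 and Psmb11 are at 35.95 TPM or above in every library.

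Both tissue-restricted core genes were low. Psma8, the alpha subunit of the testis proteasome, was at 1.70 to 3.47 TPM in controls and 1.68 to 2.97 TPM in the Cre libraries, and the groups overlapped. Psmb11, the catalytic subunit of the thymus proteasome, had the lowest level of the 45 genes, at 0.20, 0.09, 0.37 and 0.12 TPM in controls 1 to 4 and at 0.64, 0.09, 0.37 and 0.65 TPM in Cre 1 to 4. It was below the filter and was not tested with limma, and the groups overlapped (exact permutation test, two-sided p = 0.257). Its direct neighbour among protein-coding genes in RefSeq is Psmb5, which was at 108 TPM or above in every library.

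Of 15 tested core genes, 1 was higher and 1 lower, while 13 did not pass, and their median log2 fold change was 0.03. That is 6.67% in each direction, beside 13.1% higher and 14.2% lower over all tested genes. The summed core level was 3195 to 3352 TPM in controls and 3103 to 3485 TPM in the Cre libraries, with overlapping groups. The active subunits were among the genes that did not pass. Psmb6, the caspase-like subunit and the most abundant of all 45 genes, was at 630, 628, 655 and 680 TPM in controls 1 to 4 and at 677, 697, 610 and 583 TPM in Cre 1 to 4. These values overlap, with a log2 fold change of -0.02 and a 95% interval of -0.18 to 0.14 (adjusted p = 0.883). Psmb7, the trypsin-like subunit, was at 63.5, 69.5, 63.1 and 64.0 TPM in controls and at 60.2, 67.7, 63.2 and 55.4 TPM in the Cre libraries. It overlapped as well, at -0.08 (interval -0.25 to 0.10, adjusted p = 0.4997). Psmb5, the chymotrypsin-like subunit that clinical proteasome inhibitors bind, was at 149, 151, 146 and 160 TPM in controls and at 143, 156, 121 and 108 TPM in the Cre libraries. Cre 1, 3 and 4 lay below every control and Cre 2 did not, so the groups overlapped, and the test gave -0.21 (interval -0.45 to 0.03, adjusted p = 0.174).

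Psma2, an alpha ring subunit, was the core gene that rose. It was at 126, 135, 125 and 127 TPM in controls and at 157, 152, 149 and 156 TPM in the Cre libraries, so that every Cre library lay above every control library. The means were 128 ± 4.57 and 154 ± 3.64 TPM (SD, n = 4 per group; log2 fold change 0.26, SE 0.06, limma adjusted p = 0.00817). The other alpha genes had values between -0.10 for Psma1 and 0.16 for Psma3. Psmb3, a beta subunit without an active site, was the core gene that fell, from 390, 399, 403 and 400 TPM in controls to 343, 334, 297 and 294 TPM in the Cre libraries. The control libraries were within a narrow band and all Cre libraries were below it. The fall was 1.25-fold (log2 fold change -0.33, SE 0.07, adjusted p = 0.00538). Without control 2, Cre 2 and Cre 4 it did not pass (log2 fold change -0.32, adjusted p = 0.0616). The other beta genes without active sites had small differences: Psmb1 was at 0.11, Psmb2 at 0.14 and Psmb4 at 0.07 on the log2 scale, none past the threshold. Psmb2 was higher in every Cre library than in any control library (395 to 427 against 348 to 385 TPM) but did not pass over all genes (adjusted p = 0.117).

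The regulatory particle had 0 genes called higher by limma, 5 lower and 12 not past among 17, with a median log2 fold change of -0.17. That is 29.4% lower, beside 14.2% lower and 13.1% higher over all tested genes. Lower calls were more frequent among genes averaging at least 5 TPM (2511 of 11955), a level that all 17 genes exceeded. At an unadjusted p under 0.05 only Psmd8 of the lid was higher, at 0.16 (adjusted p = 0.107). The summed level of the 17 genes was 2868 to 3124 TPM in controls and 2688 to 2797 TPM in the Cre libraries. All 4 Cre sums were below all control sums. Against the core sum of the same library the ratio was 0.858 to 0.978 in controls and 0.803 to 0.868 in the Cre libraries, which overlap through Cre 4. In bulk tissue, fewer cells of a type and less RNA per cell cannot be told apart.

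Of the 6 ATPase genes of the base, 2 fell (33.3%, beside 14.2% over all tested genes) and 4 did not pass. Psmc4 fell from 227, 198, 200 and 215 TPM in controls to 171, 173, 160 and 174 TPM in the Cre libraries (log2 fold change -0.30, SE 0.07, adjusted p = 0.00770). Psmc1, whose protein's tail helps to open the core gate, fell from 295, 275, 271 and 267 TPM to 219, 240, 231 and 229 TPM (-0.27, SE 0.06, adjusted p = 0.00847). Both genes had no overlap between groups. The call of Psmc1 ended without control 2, Cre 2 and Cre 4 (log2 fold change -0.30, adjusted p = 0.0533). Psmc5 and Psmc6 also had no overlap, at -0.18 and -0.17, but did not pass (adjusted p = 0.0663 and 0.113). Psmc3, the most abundant ATPase gene, was at 0.05 and Psmc2 at -0.11, neither past the threshold. The base scaffold genes Psmd1 and Psmd2 and the ubiquitin receptor gene Psmd4 did not pass either, at -0.02, -0.20 and -0.15. Psmd2 was close to the threshold (adjusted p = 0.0605) and passed in 4 of 20 alternatives.

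Of 8 lid genes, 3 fell (37.5%, beside 14.2% over all tested genes) and 5 did not pass. Psmd11, a scaffold subunit of the lid, had the largest fall in the regulatory particle. It was at 131, 137, 117 and 108 TPM in controls and at 77.0, 87.1, 80.7 and 102 TPM in the Cre libraries, with Cre 4 closest to the controls but below all of them. The fall was 1.42-fold (log2 fold change -0.51, SE 0.11, adjusted p = 0.00637). Psmd14, the metalloprotease that cuts ubiquitin chains off the substrate, fell from 135, 137, 125 and 127 TPM to 107, 109, 105 and 110 TPM. The values were close together in each group and did not overlap (-0.28, SE 0.06, adjusted p = 0.00740). Without control 2, Cre 2 and Cre 4 the log2 fold change was again -0.28 and the adjusted p was 0.0537. Psmd12, another lid scaffold gene, fell by 0.30 on the log2 scale (adjusted p = 0.0207), a call that held in 13 of 20 alternatives and ended without control 1, control 3 or Cre 3. The structural lid genes Psmd3, Psmd6, Psmd7 and Psmd13 did not pass, at -0.23, 0.04, -0.06 and -0.06.

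The 4 activator genes split. Psme1 and Psme2 encode the alpha and beta subunits of PA28, the cap known for shaping peptides for antigen presentation. Psme1 was at 122, 126.5, 129 and 147 TPM in controls and at 276, 366, 290 and 266 TPM in the Cre libraries. Its lowest Cre value was well above its highest control value, and Cre 2 was the highest. Means were 131 ± 10.7 and 299.5 ± 45.4 TPM (SD, n = 4 per group), a 2.28-fold rise (log2 fold change 1.18, SE 0.10, adjusted p = 7.39e-05 with limma). Psme2 was at 228, 240, 243 and 264.7 TPM in controls and at 388, 454, 430 and 404 TPM in the Cre libraries. It rose 1.72-fold (0.78, SE 0.07, adjusted p = 8.40e-05), again with no overlap. The exact permutation test gave p = 0.0286 for both, the smallest that 4 against 4 libraries allow. The 2 genes lie on the same chromosome with 1 protein-coding gene, Emc9, between them in RefSeq. Psme2b, a near copy of Psme2, was at 5.01 to 6.68 TPM in controls and 8.56 to 10.49 TPM in the Cre libraries, and reads of Psme2 could be shared with it.

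The rise of Psme1 was larger than that of Psme2. The ratio of Psme1 to Psme2 within a library was 0.527 to 0.554 in controls and 0.659 to 0.807 in the Cre libraries (exact permutation test, two-sided p = 0.0286). This ratio does not depend on how a library was scaled. Psme3 encodes PA28 gamma, the nuclear relative of the pair. It was at 133, 127, 135 and 121 TPM in controls and at 119, 105, 107 and 117.5 TPM in the Cre libraries. Every Cre library was below the controls, but the change did not pass (-0.20, interval -0.36 to -0.05, adjusted p = 0.0550), and it did pass in 3 of 20 alternatives. Per library, Psme1 stood at 0.917 to 1.21 times Psme3 in controls and at 2.26 to 3.49 times Psme3 in the Cre libraries.

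Psme4, the large activator PA200, was low, at 9.54, 11.1, 8.86 and 10.7 TPM in controls and at 15, 12.8, 12.5 and 12.4 TPM in the Cre libraries. The groups did not overlap and the rise passed the test (0.36, SE 0.11, adjusted p = 0.0386). It was past the threshold in only 8 of 20 alternatives, and leaving out any 1 library except control 2 ended it. The first 300 nt of its longest annotated transcript hold 81.3% GC, the highest of the 45 genes, and with libraries corrected for that GC content its log2 fold change was 0.68 (adjusted p = 0.00128). Psmf1, the proteasome inhibitor PI31, which also carries proteasomes along axons, fell. It was at 95.1, 89.4, 89.4 and 92.2 TPM in controls and at 66.5, 71.0, 70.5 and 78.8 TPM in the Cre libraries. All controls were above all Cre libraries, and the fall was 1.28-fold (-0.35, SE 0.07, adjusted p = 0.00519).

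**Figure D3:**
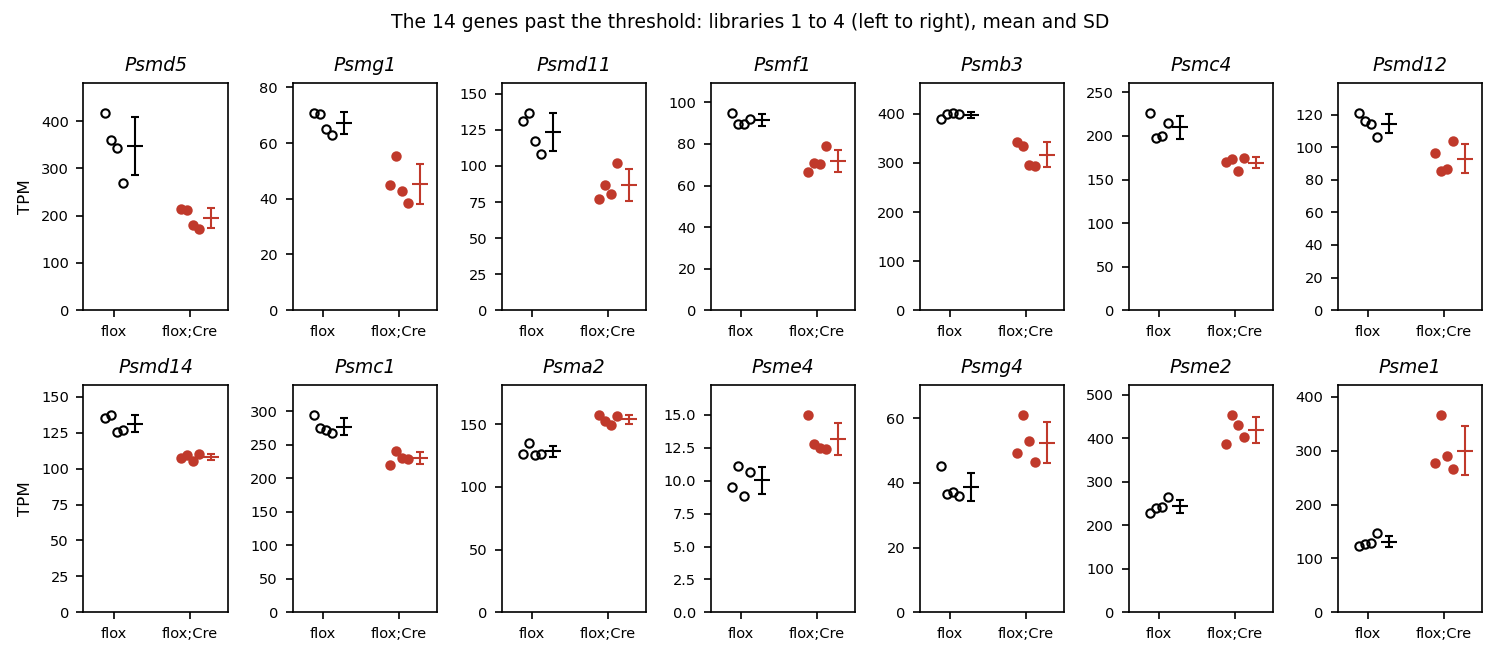
TPM of the 14 proteasome genes past the threshold in each AVP-flox library (open) and AVP-flox;Cre library (red), libraries 1 to 4 from left to right, with the group mean and SD beside the points. Each y axis starts at 0. In all 14 genes the groups do not overlap, and the largest steps are in Psme1, Psme2 and Psmd5.

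Assembly factors also differed among themselves. Of 7, 1 rose, 2 fell and 4 did not pass. That is 14.3% higher and 28.6% lower, beside 13.1% and 14.2% over all tested genes. The 3 chaperones Psmd5, Psmd9 and Psmd10 hold ATPases of the base before they join the particle. Psmd5 was the most abundant of the 3, at 418, 361, 343 and 268.5 TPM in controls and at 214, 212, 180 and 172.5 TPM in the Cre libraries. It had the largest fall of all proteasome genes, 1.79-fold (log2 fold change -0.82, SE 0.13, adjusted p = 0.00154), and no Cre library reached the lowest control. Its controls were the most scattered among the 9 fallen genes, with a coefficient of variation of 17.7%. With control 2, Cre 2 and Cre 4 left out, the log2 fold change was -0.78 and the adjusted p was 0.0628. Psmd9 was at 56.0, 56.0, 48.6 and 47.8 TPM in controls and at 45.3, 50.8, 50.2 and 47.4 TPM in the Cre libraries, with overlap (-0.10, adjusted p = 0.409). Psmd10, known as gankyrin, was at 154, 136, 149 and 135 TPM against 129, 130, 119 and 121 TPM. Its groups did not overlap, but it did not pass (-0.20, interval -0.35 to -0.05, adjusted p = 0.0540). The ratio of Psmd5 to Psmd9 within a library was 5.62 to 7.46 in controls and 3.58 to 4.72 in the Cre libraries (exact permutation test, two-sided p = 0.0286).

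Psmg1 to Psmg4 work as pairs that build the alpha ring, Psmg1 with Psmg2 and Psmg3 with Psmg4. Psmg1 fell from 70.9, 70.4, 65.0 and 62.9 TPM in controls to 45.0, 55.4, 42.7 and 38.3 TPM in the Cre libraries (-0.57, SE 0.11, adjusted p = 0.00406). Its partner Psmg2 was at 71.3, 70.8, 66.7 and 67.6 TPM against 64.3, 65.0, 55.6 and 58.2 TPM. Those values did not overlap but did not pass (-0.18, interval -0.35 to -0.02, adjusted p = 0.0903). Psmg3 was at 43.4, 41.0, 38.7 and 44.8 TPM against 40.4, 45.5, 45.6 and 42.6 TPM and overlapped (0.05, adjusted p = 0.672). Its partner Psmg4 rose, from 45.3, 36.7, 37.2 and 36.0 TPM in controls to 49.3, 61.0, 53.1 and 46.4 TPM in the Cre libraries. Control 1 was close to the lowest Cre library, and the rise was 1.35-fold (0.43, SE 0.11, adjusted p = 0.0155). It did not pass without control 2, Cre 2 and Cre 4 (log2 fold change 0.37, adjusted p = 0.112). Partners had different calls in both pairs, and whether partners differ in response was not tested.

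The promoter window of each gene, 250 bases before to 50 after the RefSeq start in build GRCm38.p6, was searched on both strands for 4 letter patterns. Windows were on hand for 37 of the 45 genes. The ETS-type pattern CGGAAG was in 22 of 37 (59.5%), against 32.7% of 11393 tested genes and 18.8% of all 27025 genes with a window. The interferon-type pattern, a GAAA and another GAAA with any 2 bases between, was in 5 of 37 (13.5%), against 3.82% of tested genes and 3.99% of all. The pattern TGACNNNGC, of the antioxidant response type that factors such as Nfe2l1 read, was in 6 of 37 (16.2%), against 16.8% of tested genes and 14% of all. CCAAT was in 13 of 37 (35.1%), against 42.5% and 41.1%. CGGAAG was in 7 of the 9 genes that fell, in 1 of the 5 that rose, in 13 of 22 that did not pass and in the untested Psmb11. These are letter matches and not measured binding.

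These 3 stretches of 30 bases show every gene among the called ones that holds the interferon-type pattern, in capitals as read on the gene's strand: 2 that rose and 1 that fell.
Psme1 (chr14:55578493-55578522, plus strand, rose): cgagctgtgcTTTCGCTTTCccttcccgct
Psmg4 (chr13:34162969-34162998, plus strand, rose): gcgcgcatctGAAAGTGAAAgagcgttccg
Psmb3 (chr11:97703261-97703290, plus strand, fell): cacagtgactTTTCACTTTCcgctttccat
Psme2, which rose beside Psme1, has no such match in its windows. The active-site genes Psmb5 and Psmb6, neither of which passed the test, both hold the antioxidant-type pattern. It is in capitals for Psmb6, the most abundant gene.
Psmb6 (chr11:70525338-70525367, plus strand): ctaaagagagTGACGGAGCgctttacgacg
Psmg1, which fell, has 3 ETS-type matches, in capitals, in the 250 bases before its start, and Psmd5, which fell most, has none of the 4 patterns there.
Psmg1 (chr16:95990961-95991210, minus strand): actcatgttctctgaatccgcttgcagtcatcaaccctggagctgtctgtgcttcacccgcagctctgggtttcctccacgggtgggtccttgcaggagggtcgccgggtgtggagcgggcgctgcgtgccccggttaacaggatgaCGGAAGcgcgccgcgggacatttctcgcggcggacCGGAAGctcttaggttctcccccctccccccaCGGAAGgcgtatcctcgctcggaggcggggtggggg

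The immunoproteasome subunits, outside the rule, were compared with the constitutive subunits they replace. Psmb8 was at 34.8, 35.5, 36.1 and 41.7 TPM in controls and at 98.7, 116, 107 and 114 TPM in the Cre libraries (log2 fold change 1.53, SE 0.08, adjusted p = 6.70e-06). Psmb9 rose from 16.8, 14.3, 14.7 and 15.2 TPM to 32.5, 53.0, 41.2 and 32.9 TPM, and Psmb10 from 51.2, 60.4, 56.9 and 53.7 TPM to 82.1, 119, 85.6 and 71.2 TPM (adjusted p = 0.000274 and 0.00696). Their constitutive partners did not pass, as given above. Within a library, Psmb8 was at 0.233 to 0.261 of Psmb5 in controls and at 0.690 to 1.06 of it in the Cre libraries. Psmb10 was at 0.806 to 0.901 of Psmb7 against 1.29 to 1.75, while Psmb9 stayed far below Psmb6, at 0.0224 to 0.0267 against 0.0480 to 0.0760. None of the 3 ratios overlapped between groups. The 6 leukocyte markers summed to 28.5 to 35.8 TPM in controls and 44.9 to 62.7 TPM in the Cre libraries, and 5 fibroblast and pericyte markers to 110 to 149 and 226 to 289 TPM. Neither sum overlapped, 5 of the 6 leukocyte markers and all 5 others were above 0 in every library, and their part in these rises was not tested. The fibroblast and pericyte list was mixed. Pdgfra, at 59.6 to 73.8 and 125 to 178 TPM, and Col1a2, at 23.2 to 30.3 and 59.7 to 71.4 TPM, did not overlap. Pdgfrb, at 21.5 to 34.95 and 27.04 to 37.6 TPM, overlapped, as did Col1a1 and Dcn. Among the leukocyte markers Csf1r did not overlap, at 7.39 to 16.3 TPM in controls and 21.9 to 34.1 TPM in the Cre libraries. The other 5 overlapped: Cd68 was at 14.3 to 20.9 and 16.7 to 20.4 TPM, Adgre1 at 1.31 to 1.95 and 1.78 to 4.13 TPM, Ptprc at 1.27 to 1.48 and 1.37 to 3.38 TPM, Cd3e at 0.41 to 0.81 and 0.38 to 1.53 TPM, and Itgam at 0 to 0.31 and 0.11 to 0.27 TPM.

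**Figure D4:**
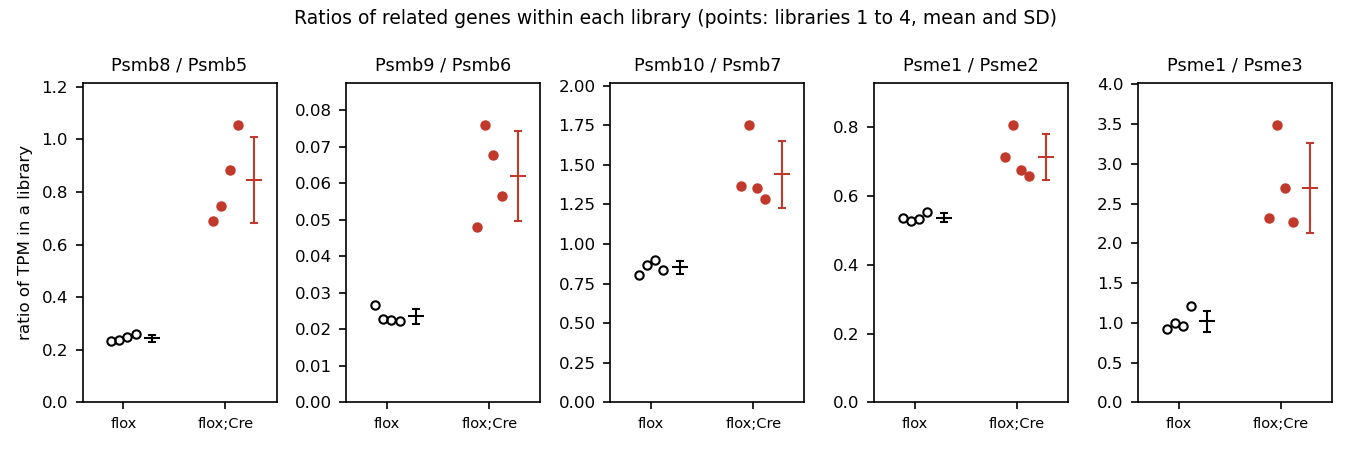
Ratios of TPM within each library (y axis, from 0) for the 3 exchangeable pairs of active subunits, for Psme1 over Psme2 and for Psme1 over Psme3, in AVP-flox (open) and AVP-flox;Cre (red) libraries 1 to 4, with mean and SD. In all 5 panels every AVP-flox;Cre library is above every AVP-flox library.

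Of 30 other tested genes of the pathway, 4 were higher, 10 lower and 16 not past, with a median log2 fold change of -0.16. That is 13.3% higher and 33.3% lower, beside 13.1% and 14.2% over all tested genes. The 4 that rose were the 3 immunoproteasome genes and Ubb. Adrm1, the ubiquitin receptor that docks on the base, fell from 190, 186, 159 and 153 TPM in controls to 112, 110, 103 and 88.5 TPM in the Cre libraries (-0.73, SE 0.10, adjusted p = 0.000677). Sem1, the smallest lid subunit, did not pass (0.12, interval -0.07 to 0.32, adjusted p = 0.335). Pomp, which helps the core to mature, did not pass either. Pomp was at 134, 153, 140 and 164 TPM against 160, 180, 157 and 169 TPM (0.17, adjusted p = 0.140). Nfe2l1, the transcription factor that raises proteasome genes when proteasome activity is short, was at 235, 220, 239 and 236 TPM in controls and at 215, 196, 207 and 209 TPM in the Cre libraries. It was lower in every Cre library but not past the threshold (-0.17, interval -0.30 to -0.04, adjusted p = 0.0574). Ddi2, Ngly1 and Vcp, which act in its activation, did not pass, at -0.16, -0.08 and -0.02, while its relative Nfe2l2 fell by 0.57 on the log2 scale (adjusted p = 0.00350).

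Ubb, a polyubiquitin gene, rose from 772, 721, 824 and 763 TPM to 949, 1013, 954 and 981 TPM (0.34, SE 0.06, adjusted p = 0.00276), a call that ended without control 2, Cre 2 and Cre 4. Its groups did not overlap. Uba1, the main ubiquitin-activating enzyme, fell by 0.28 on the log2 scale, a call that held in 13 of 20 alternatives. Of 8 shuttle and proteasome-binding factors 3 fell (37.5%, beside 14.2% over all tested genes) and 5 did not pass. Ubqln2, which carries ubiquitinated proteins, fell from 9.43, 10.9, 9.44 and 8.30 TPM to 4.54, 6.09, 5.65 and 4.82 TPM (-0.75, adjusted p = 0.00315). The 2 zinc finger genes Zfand5 and Zfand2a fell by 0.96 and 0.58. Akirin2, which brings proteasomes into the nucleus, was at 61.4 to 64.7 TPM in controls, at 71.5 TPM in Cre 1 and at 18.6 to 30.02 TPM in Cre 2 to 4 (-0.97, adjusted p = 0.0481). That call held in 6 of 20 alternatives. The ligase gene Ube3c had the same split, at 27.1 TPM in Cre 1 and 9.42 to 11.7 TPM in the other 3, against 23.6 to 27.04 TPM in controls (-0.86, adjusted p = 0.0353, held in 10 of 20). The first 300 nt of Akirin2 and Ube3c hold 76.3% and 74.7% GC, beside a median of 58.3% over tested genes. Those of Zfand5 and Ubqln2 hold 75.7% and 75.3%. Both of these calls held in 20 of 20 alternatives, over which the log2 fold change of Zfand5 ran from -1.10 to -0.53. With libraries corrected for this GC content the call of Akirin2 ended and that of Ube3c held. Whether GC content has a part in the split or in the falls of Zfand5 and Ubqln2 was not tested.

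GC content at the transcript start was near the background for the proteasome genes. The first 300 nt of the 45 genes had a median of 57.7% GC, and the medians were 56.3% for the 9 that fell and 62.7% for the 5 that rose. With libraries corrected for the trend with this GC content, all 14 calls were kept and Psmd2 was added. The values of Psme1 (1.197), Psme2 (0.79), Psmd5 (-0.80), Psmg1 (-0.55) and Psmd11 (-0.51) were close to those without the correction. Retained copies could share reads with their parent genes, but 5 entries annotated as pseudogenes of Psma5, Psmb5, Psmb6 or Psmb7 reached at most 1.80 TPM in any library. The 8 antisense entries that overlap proteasome genes reached at most 2.9 TPM, and counting by strand is not given in the sources used here.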

How the data were processed

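RNA from mouse kidney labelled IMCD was sequenced in 8 libraries, 4 AVP-flox and 4 AVP-flox;Cre. Libraries came from the SMART-Seq HT kit (1 ng RNA, 11 PCR cycles) and Nextera XT, sequenced as 50 bp read pairs, per the labels' protocols. The submitters' processing notes name STAR and RSEM but no versions, and the genome build is not given in the sources used here. The deposited table holds TPM values per Ensembl gene, made by the authors, with each column summing to 1000000 within 2.04. WT in a column name was taken to mean AVP-flox, and KO to mean AVP-flox;Cre, with matching replicate numbers. Depth is unknown, so no counting interval is given.

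Identifiers with the same symbol were added up (312 symbols), leaving 77981 genes, of which those averaging 1 TPM or more were tested. R 4.3.3 with limma 3.58.1 (mean-variance trend, log2(TPM + 1), Benjamini-Hochberg over 19043 genes) compared AVP-flox;Cre with AVP-flox, two-sided, and was tested on simulated data. Single values were compared with an exact permutation test. GC content came from GENCODE M21 transcripts and promoter sequences from RefSeq, GRCm38.p6. For 35 of 37 genes with a promoter window, 30 bases after the start were found in a GENCODE transcript of the gene. The genes and lists were chosen with earlier results of these data known. Genes given with all 8 values were the active subunits, Psmd14, Psmc1, all activators, the inhibitor and assembly factors, the 12 members of smallest adjusted p, the highest and lowest member, Psmb8, Psmb9, Psmb10, Pomp, Nfe2l1 and the 6 other pathway genes of smallest adjusted p. Other genes are named to account for their role group, a choice made after their values were seen. Some genes these rules select are not reported here. Paaf1, a listed base assembly factor, was not matched in the table. Alternatives covered the replicate block, pseudocount, filter, scaling, trend, sex pattern, GC correction, threshold and libraries left out.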

Additional observations from a re-analysis of the deposited data

Results flagged for a closer look

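In 6 cases 1 library lay apart from the other 3 of its group, with a gap to the nearest of 0.842 to 0.889 of the group's range (Dixon's test). Psma2 was highest in AVP-flox 2 (135.18 TPM against 125.48 to 126.56), as was Psmb7 (69.54 against 63.11 to 63.95). Psmb2 was highest in AVP-flox;Cre 2 (426.56 against 394.64 to 399.28). Psme4 was highest in AVP-flox;Cre 1 (15 against 12.4 to 12.81). Its call ended without that library, and also without any other single library except AVP-flox 2. Psmg4 was highest in AVP-flox 1 (45.29 against 35.95 to 37.15). Ube3c in AVP-flox;Cre 1 (27.09 against 9.42 to 11.74) was at the level of the AVP-flox libraries. These are 6 of 150 groups of 4 screened, and chance flags about 1 in 20.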

How the results depend on the processing

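The 14 called proteasome genes kept their direction in all 20 refitted alternatives, and 7 of them (Psma2, Psmc4, Psmd11, Psme1, Psme2, Psmf1 and Psmg1) passed in every one. Psme4 and Psmd12 lost their calls most often. Without any filter (67580 genes in the adjustment) 3409 genes passed, 1643 of them lower, and 3 proteasome genes were higher. With 3 libraries left out (AVP-flox 2, AVP-flox;Cre 2 and 4) there were 2224 genes (1218 higher and 1006 lower) and 7 proteasome genes (3 higher and 4 lower). With the sex pattern as a covariate 16 proteasome genes passed (4 higher and 12 lower). At a threshold of 0.1, 14 proteasome genes were lower. Over the fits without 1 library, the whole table gave 3960 to 4769 calls, the proteasome genes 12 to 15, and their median was -0.11 to -0.06. The median of all genes shifted by less than 0.1 on the log2 scale in every alternative. TPM keeps no read number, so what depth limits could not be stated.

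Log2 fold changes near 0 changed sign for 11 genes, none past the threshold; the cause was not tested. Psmd1 was 0.0010 with median-of-ratios scaling and 0.0054 with quantile normalization, Psma4 -0.0014 with the rescaling, Vcp 0.0014 with the GC correction, and Ubqln4 0.0497 without the 3 libraries. Over the fits without 1 library, Psma4 ranged from -0.0200 to 0.0571, Psma8 from -0.1898 to 0.0527, Psmb4 from -0.0104 to 0.1211 and Psmb6 from -0.0586 to 0.0267. Psmd1 ranged from -0.0463 to 0.0120, Psmd6 from -0.0066 to 0.0861, Ecpas from -0.0115 to 0.0978, Uchl5 from -0.0782 to 0.0452 and Txnl1 from -0.0255 to 0.0835.

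Deviations of same-numbered libraries had correlations of 0.001, 0.015, 0.095 and 0.004, and only AVP-flox 3 correlated best with its own number, so the numbers were not taken as pairs. With the replicate block 12 proteasome genes passed (4 higher and 8 lower) and 4431 genes in all (2187 higher and 2244 lower), with a median of -0.08 for the proteasome genes.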
